A study of Drosophila melanogaster with 3 samples.

Results

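Binding of Combgap in whole Drosophila melanogaster embryos was measured by ChIP-seq (sequencing of immunoprecipitated chromatin), and the peaks described here are those at promoters whose sequence lacks the GT repeat that most strong Combgap peaks hold. A thresholded peak was taken where its summit lay within 500 bp of the transcription start site (TSS) of a protein-coding gene and outside every coding exon and 3' UTR. The 200 bp window centred on the summit had to hold no run of 3 or more GT units on either strand, that is neither GTGTGT nor its reverse complement. This left 1314 peaks without a GT run of 3183 promoter peaks (41.3%, exact 95% binomial interval 39.56 to 43.02), and of 7913 thresholded peaks in all. The other 1869 promoter peaks held a run and are the set they are compared with. The embryos came from a transgenic line that stably carried cg, the gene for Combgap, with green fluorescent protein at its C-terminal end. They were aged 0 to 24 h, male and female together, and chromatin sheared to 200 to 800 bp was precipitated with an antibody against the fluorescent protein. All 3 samples were biological replicates of this 1 group, and their lists rested on 1 shared control alignment, so the comparisons are between classes of peaks within each replicate. Peaks average over all tissues and stages of the embryo, and read depth is unknown.

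Combgap is a zinc-finger DNA-binding protein of Drosophila. It binds GTGT-rich elements, acts in limb and visual system patterning, and is known to help bring Polycomb group proteins, which keep developmental genes repressed, to Polycomb response elements (PREs). Such elements also hold sites for GAGA factor (Trl), Pipsqueak, Pleiohomeotic (Pho), Zeste and Sp1/KLF family proteins, and many housekeeping promoters of flies hold sites for Dref, M1BP or BEAF-32.

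Stretches of 30 bases from some of the highest peaks show letters that windows without a run held. They are examples: TGTGTG was in 20.5% and GTATGT in 17.0% of all windows without a run. They were read 5' to 3' from the release 6 assembly (dm6). In the first set the capitals mark a run shifted by 1 base, TGTGTG, or a run broken by 1 changed base, GTATGT, at genes for a kinase partner (Mob2), a repressor of BMP target genes (brk), an Iroquois homeodomain protein (mirr) and an uncharacterised product (CG2310).
Mob2: cttcatctttacTGTGTGctctgctttcgt
brk: gcactttacgccTGTGTGcgtgagcatttc
mirr: cgcgccgcgtttGTATGTgtgagcgagaga
CG2310: gcctgtgtgcgtGTATGTgtcagcagtgca
The next set shows letters sought for other factors, more frequent in these windows than at start sites. They are the Zeste letters TGAGTG at bi and Atxn7, and the GA run GAGAGAG in the same brk window.
bi: ggagagagagaaTGAGTGaactgcggggtt
Atxn7: tgggtaagtgcgTGAGTGtgctgtgcgtcg
brk: gtgcagcagtggGAGAGAGagtgagagggg
The windows of svp and E(spl)mbeta-HLH held not even 2 GT units in a row. Outside the bases shown, the svp window did hold TGAGTG, and that of E(spl)mbeta-HLH held GTATGT and GAGAGAG. The bases around their summits are given with no capitals.
svp: aggtcttgccccaccaacgcgagcgagcga
E(spl)mbeta-HLH: gtatacttttgcctgtatatgtgagggcaa
For contrast, trx and grn, at high promoter peaks with a run, are shown with the run in capitals.
trx: acgtatgcgcGTGTGTGTGTGTgcgggtgt
grn: GTGTGTgcGTGTGTGTGTgagtgtgcgtgc

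The Mob2 stretch is chr3L:11553275-11553304 on the minus strand, in an intron. The first brk stretch is chrX:7307816-7307845 on the plus strand and the second is chrX:7307726-7307755 on the minus strand, both within an intron. The mirr stretch is chr3L:12693487-12693516 on the minus strand, in intergenic sequence upstream of the gene, and that of CG2310 is chr3R:29493397-29493426 on the minus strand, at a summit in a 5' UTR. The bi stretch is chrX:4426897-4426926 on the minus strand and the Atxn7 stretch is chr2L:2376261-2376290 on the plus strand, both at summits in introns. The svp stretch is chr3R:12280932-12280961, in an intron, and that of E(spl)mbeta-HLH is chr3R:26006203-26006232, intergenic. The contrast stretches are chr3R:14286606-14286635 for trx and chr3R:8181548-8181577 for grn. A match to letters is a description of the sequence and not evidence of a bound site.

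A property of the peak lists touches many of the results below. Neighbouring summits were never closer than 199 bp, and of 1401 neighbouring pairs within 250 bp of each other, 1394 (99.5%) had the lower summit at the higher coordinate, whatever the direction of the gene. Of the peaks without a GT run, 478 (36.4%) had such a higher summit within 250 bp, and 357 of these 478 higher summits held a GT run. The same was true of 238 promoter peaks with a run (12.7%). The 478 are called trailing here, and the 836 without a higher summit within 250 bp are called leading. Of the 2467 leading promoter peaks of both classes, these 836 were 33.9%, against the 41.3% without a run among all promoter peaks. What part of the signal at a trailing summit belongs to its higher neighbour was not tested, so results are given for all 1314 and for the 836 leading peaks where these differ.

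Promoter peaks without a GT run had lower signal than those with one. The peak caller's signal has a different scale in each list, so ratios were taken within a replicate. The median signal of peaks without a run was 395, 189 and 346 in replicates 1, 2 and 3, against 831, 384 and 685 for peaks with a run. The ratios were 0.476, 0.492 and 0.505, with a mean of 0.491 ± 0.0148 (SD, n = 3 replicates), and the peaks without a run were lower in every replicate. An exact two-sided sign-flip permutation test over the 3 replicates gave p = 0.25, the smallest value that 3 replicates allow, and this limit holds for every test below. Among leading peaks alone the ratio was 0.461 ± 0.0211. The median ranks of peaks without a run were 4113, 4314 and 4096 in the 3 replicates, against 2170, 2297 and 2217 for peaks with a run.

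The deficit was steepest at the top of the lists. Among the 1000 highest thresholded peaks stood 103 of the 1314 peaks without a run (7.84%) and 516 of the 1869 with a run (27.6%), where 12.6% of all thresholded peaks stand there by definition. The 4730 thresholded peaks that were not promoter peaks by this definition, those in coding exons and 3' UTRs near a TSS included, reached that range in 8.05% of cases. Of the leading peaks, 96 of 836 without a run (11.5%) and 503 of 1631 with a run (30.8%) were among the 1000 highest. In the replicates' own lists, the 1000 highest peaks held 106 ± 3.00 promoter summits without a run and 511 ± 15.3 with a run (SD, n = 3). The share of promoter summits that lacked a run was 13.2% ± 0.547 in ranks 1 to 500, 32.2% ± 1.03 in ranks 1001 to 2000, 57.9% ± 0.835 in ranks 4001 to 8000 and 80.7% ± 1.02 in ranks 15001 to 30000 (SD, n = 3). The 200 bp windows at all 19253 protein-coding TSSs lacked a run in 86.6% of cases, so the lowest-ranked promoter summits came near the composition of promoters in general.

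**Figure D1:**
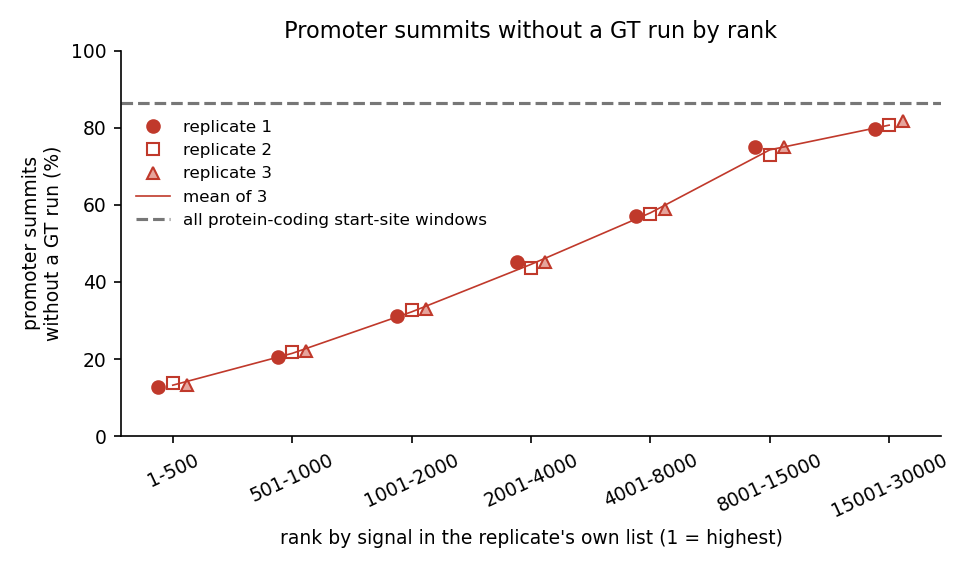
The percentage of promoter summits without a GT run (vertical axis) is plotted by rank of signal in each replicate's own list (horizontal axis, 7 ranges from high to low signal), with a symbol for each of 3 replicates, their mean as a line, and the percentage over all protein-coding start-site windows dashed. The share climbed in every step, with a mean of 13.2% in ranks 1 to 500 and of 80.7% in ranks 15001 to 30000, below the dashed 86.6%.

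Peaks without a run were present in nearly all replicate lists. The thresholded list keeps peaks that recur across these same replicates, so this follows largely from the choice of peaks. A peak that held the summit was present in all 3 replicate lists for 1289 of the 1314 (98.1%), against 1852 of the 1869 with a run (99.1%). Of the 1314, 84 ranked within the 1000 highest of every replicate. The median SD of a peak's rank over replicates was 12.6% of its mean rank, against 10.7% for peaks with a run.

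The highest peak without a run lay 289 bp upstream of Optix, which encodes a Six-family homeodomain protein of the eye field. It ranked 14, 14 and 19 in replicates 1, 2 and 3, and its window held 5 alternating bases of G and T. The peak 222 bp upstream of Mob2 ranked 23, 17 and 24. Sox14, an HMG-box factor of the ecdysone response, had a peak 249 bp upstream that ranked 48, 46 and 33, and its window held no GTGT at all. The peak 172 bp upstream of brk ranked 52, 43 and 51, and that 162 bp upstream of mirr ranked 60, 55 and 59. The T-box gene bi (optomotor-blind) had a peak 208 bp upstream at ranks 63, 89 and 74. These 6 peaks thus stayed within the 100 highest of every replicate. Outside their windows, the nearest GT run lay 108 bp from the summit at Optix, 131 bp at Mob2 and bi, and 137 bp at Sox14. It was farther at mirr (214 bp) and brk (423 bp).

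The next ranks held less uniform genes. Atxn7, for a subunit of the SAGA histone-modifying complex, had a peak 48 bp upstream at ranks 80, 98 and 71. The peak of akirin, which encodes a nuclear cofactor, lay 32 bp downstream and ranked 75, 133 and 102. Then came CG2310 (168, 200 and 164), apt (199, 118 and 186), which encodes a transcription factor of the head and trachea, and hyd (159, 212 and 189), for an E3 ubiquitin ligase. IntS6 of the Integrator complex had ranks of 181, 160 and 206, and the visual system homeobox gene Vsx1 had 230, 202 and 245. The remaining genes among the 20 highest were ph-d, tou (a chromatin remodelling factor), Zasp52 (a Z-disc protein), Cpsf6 (a factor of mRNA 3' end formation), CG12054, Dr (an Msx-type homeodomain protein) and caps (a cell-surface protein). None of the 30 highest peaks without a run was a trailing summit. Of the 20 highest, 14 had their summit upstream of the nearest start site. For Atxn7, akirin, CG2310, apt, hyd, IntS6, Vsx1, ph-d, tou and CG12054 a GT run lay 96 to 179 bp from the summit. Such a run crossed the edge of the window or lay outside it. For Cpsf6, Dr, caps and Zasp52 none lay within 200 bp.

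Near-runs carried a graded signal. The window's longest stretch of alternating G and T was 6 bases, necessarily TGTGTG, in 270 peaks without a run, 5 bases in 565, 4 bases in 389 and 3 or fewer in 90. Their median ranks, as means over replicates, were 3315 ± 42.3 for 6 bases, 4051 ± 133 for 5, 4623 ± 125 for 4 and 5019 ± 142 for 3 or fewer (SD, n = 3). The signal of peaks with 6 bases was 1.54 ± 0.0451 times that of peaks with 4 or fewer, above 1 in each replicate (exact sign-flip permutation p = 0.25). Among leading peaks this ratio was 1.89 ± 0.153, above 1 in each replicate, with median ranks of 2909 ± 80.6 for 6 bases and 5785 ± 119 for 3 or fewer. Trailing peaks showed no such order, with median ranks of 4412 ± 195 for 6 bases, 4144 ± 383 for 5, 4550 ± 302 for 4 and 4373 ± 191 for 3 or fewer.

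A run of exactly GTGTGT also spans 6 alternating bases and differs from TGTGTG in phase alone. The 270 peaks with TGTGTG and no run had 1.14 ± 0.0404 times the signal of the 176 peaks whose longest stretch was exactly GTGTGT. The ratio was 1.10, 1.18 and 1.13 in the 3 replicates, and 1.10 ± 0.0435 among leading peaks. These are the peaks just inside and just outside the choice by sequence: the peaks with TGTGTG had a median thresholded signal of 1164, and the exact GTGTGT peaks had 1082. Longer runs stood higher, with signal 1.83 ± 0.0578 times the median of all peaks without a run for stretches of 7 bases, 2.50 ± 0.101 times for 12 to 19 bases and 1.87 ± 0.0951 times for 20 or more.

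**Figure D2:**
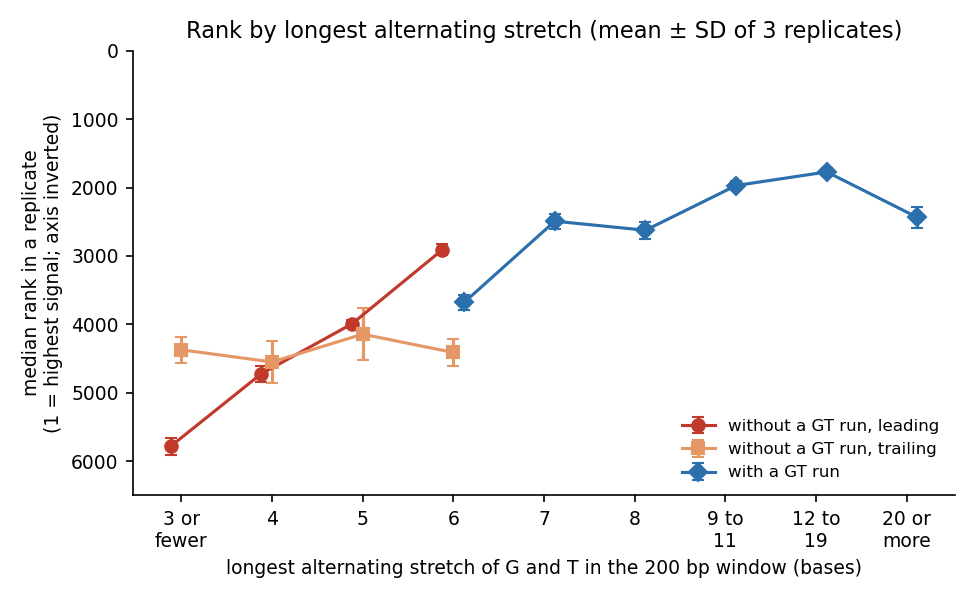
The median rank within a replicate (vertical axis, inverted, 1 is the highest signal) is plotted against the longest alternating stretch of G and T in bases (horizontal axis) for leading and trailing promoter peaks without a GT run and for promoter peaks with one. Points are means and bars SDs over 3 replicates. Leading peaks climb from 5785 at 3 or fewer bases to 2909 at 6, trailing peaks stay between 4144 and 4550, and peaks with a run stand between 3679 at 6 bases and 1772 at 12 to 19.

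Signal also went with the number of GTGT copies, which was not separated from the longest stretch or from runs outside the window. Of the windows without a run, 1080 (82.2%) held at least 1 GTGT, against 69.9% of the 10781 start-site windows that had neither a run nor a pooled peak within 500 bp (peak-free start sites) and 75.4% of all start-site windows. Peaks with 4 or more copies, which may overlap, had a mean median rank of 3248 ± 118, those with 2 had 4036 ± 147 and those with none had 4809 ± 162. The signal of the 166 peaks with 4 or more copies was 1.62 ± 0.0508 times that of the 234 with none, and 2.08 ± 0.129 times among leading peaks. In both sets the ratio was above 1 in all 3 replicates.

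The 234 peaks with no GTGT still included high ones. After Sox14 came svp, for a nuclear receptor of the COUP-TF type, at ranks 424, 356 and 437. The peaks of ebd1, a cofactor of Wnt signalling, ranked 473, 541 and 464, and those of E(spl)mbeta-HLH, a Notch-responsive bHLH repressor, ranked 513, 518 and 629. The eIF3h peak, at a translation initiation factor gene, ranked 617, 607 and 569, and that of vnd, a homeodomain factor of the ventral nerve cord, ranked 546, 589 and 656. A GT run lay outside the window 137 bp from the summit at Sox14, 117 bp at ebd1, 106 bp at eIF3h and 119 bp at vnd. The nearest run to the svp summit was at 303 bp, and none lay within 500 bp of that of E(spl)mbeta-HLH. These genes were chosen after their values were seen.

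A GT run often lay just outside the window. The nearest run was within 200 bp of the summit for 513 of the 1314 peaks (39.0%, 36.4 to 41.7), against 10.2% of peak-free start sites without a run, and within 500 bp for 937 (71.3%), against 31.0%. Among leading peaks the shares were 33.6% within 200 bp and 61.4% within 500 bp, and among trailing peaks 48.5% and 88.7%. Peaks with a run within 200 bp had 1.502 ± 0.201 times the signal of the 377 peaks with none within 500 bp, and 1.90 ± 0.174 times among leading peaks. Of those 377, 21 were among the 1000 highest. In trailing peaks the runs lay mainly on the side of lower coordinates, where their higher neighbours are.

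**Figure D3:**
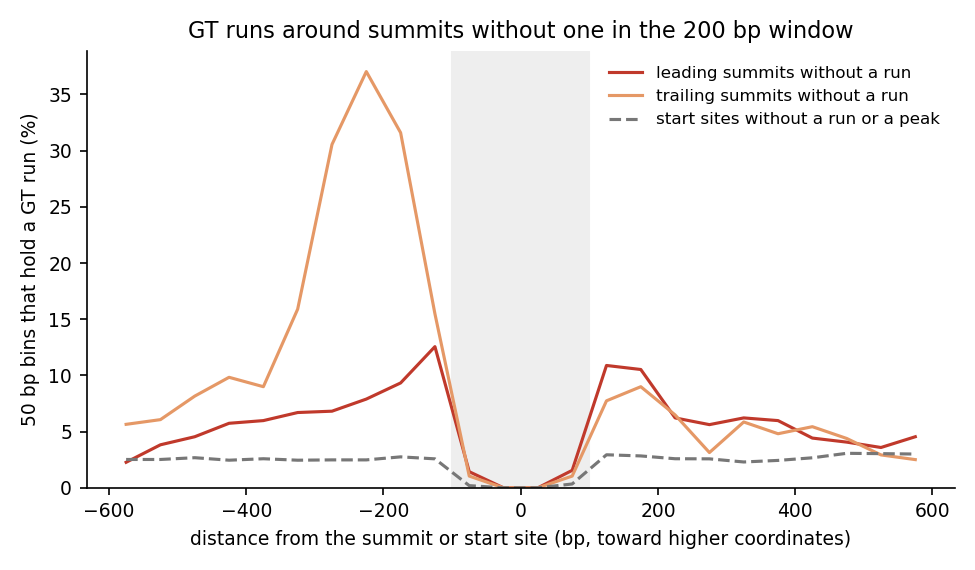
The percentage of 50 bp bins that hold a GT run (vertical axis) is plotted by distance in bp toward higher coordinates (horizontal axis) from leading summits without a run, trailing summits without a run, and peak-free start sites without a run (dashed). No run lies wholly within the shaded 200 bp by the choice of the peaks, and the small values in its outer bins are from runs that cross its edge. Leading summits have 12.6% in the bin from 150 to 100 bp below and 10.9% in the bin from 100 to 150 bp above, start sites 2.58% in the first of these bins, and trailing summits peak on the lower side.

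Sites of other factors were compared with peaks that hold a run and with start sites. Motif letters were sought on both strands in the 200 bp windows, and overlapping matches count as 1 window. The broken run GTATGT was in 224 windows without a run (17.0%), 27.0% of windows with a run, 6.80% of peak-free start sites and 7.64% of all start-site windows. The shifted run TGTGTG was in 20.5% of windows without a run and 6.87% of peak-free start sites, where all start-site windows had 16.0%, many as part of a run. Both letters went with higher signal: peaks without a run that held GTATGT had 1.27 ± 0.00371 times the signal of those that did not.

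The GA repeat bound by GAGA factor, Pipsqueak and CLAMP was frequent in both classes of peaks. GAGAG was in 526 windows without a run (40.0%, 37.4 to 42.7), 42.1% of windows with a run, 20.8% of peak-free start sites and 24.9% of all start-site windows. The longer GAGAGAG, which contains it, was in 16.1%, 14.9%, 2.68% and 4.65% of the same windows, in that order, and thus 6.02 times as frequent in peaks without a run as at peak-free start sites. Among leading thresholded peaks GAGAG was in 43.7% without a run and 43.4% with one, so the small difference between the classes turned. GAGAGAG was in 18.4% and 15.5% of them. Within the 1000 highest promoter summits of each class in the replicates' own lists, GAGAG was in 40.1% ± 0.351 of windows without a run and 46.4% ± 0.755 of those with one (SD, n = 3), a difference of -6.27 ± 0.586 percentage points. There GAGAGAG was in 15.8% ± 0.50 without a run and 17.6% ± 0.603 with one, a difference of -1.77 ± 0.115 points that was below 0 in each replicate, opposite in sign to the thresholded list. Peaks without a run that held GAGAG had 1.05 ± 0.0438 times the signal of those that did not, above 1 in 2 of 3 replicates. Among leading peaks this ratio was 1.08 ± 0.0290, above 1 in each replicate. For GAGAGAG the ratio was 1.05 ± 0.0210 over all peaks and 0.959 ± 0.0263 among leading peaks, so its direction turned.

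The Zeste letters TGAGTG were rarer in peaks without a run than in peaks with one. They were in 193 windows without a run (14.7%), 27.0% of windows with a run, 8.35% of peak-free start sites and 9.19% of all start-site windows. In the replicates' own lists the shares were 15.2% ± 0.764 without and 28.3% ± 0.321 with a run, a difference of -13.1 ± 1.06 percentage points, lower in each replicate (exact permutation p = 0.25). Peaks without a run that held them had 1.20 ± 0.00499 times the signal of the others. TGAGTG differs from TGTGTG by 1 base. In peaks with a run it was in 8.83% and 9.10% of the 50 bp bins next to the summit, against 4.60% at -250 to -200 bp. GTATGT had 9.52% and 9.84%, against 3.37%, in the same bins. Without a run TGAGTG had 3.81% and 4.72%, against 5.63%. Zeste sites and interrupted GT repeats cannot be told apart by these letters. The Sp1/KLF letters GGGCGG were in 6.93% of windows without and 5.83% with a run, 3.93% of peak-free start sites and 4.63% of all start-site windows. The Pho and Phol core GCCAT was in 28.4% of windows without a run, 23.6% with a run, 32.3% of peak-free start sites and 30.7% of all start-site windows.

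Sites of housekeeping promoter factors were rarer in peaks without a run than at start sites, and rarer still in peaks with a run. The Dref element TATCGATA was in 47 windows without a run (3.58%), 1.07% with a run, 5.28% of peak-free start sites and 6.44% of all start-site windows. The BEAF-32 core CGATA, which it contains, was in 29.5%, 20.5%, 35.3% and 37.0% in the same order, and the M1BP element GGTCACAC was in 2.74%, 1.18%, 4.83% and 5.68%. With start-site windows moved 100 bp upstream, GGTCACAC was 1.12 times as frequent in peaks without a run as at peak-free start sites, so its direction against start sites turned. In the replicates' own lists the excess over peaks with a run was 9.17 ± 0.808 percentage points for CGATA, 2.13 ± 0.208 for TATCGATA and 1.20 ± 0.173 for GGTCACAC, above 0 in each replicate. Peaks without a run that held TATCGATA had 0.704 ± 0.0660 times the signal of those that did not, and 0.638 ± 0.0180 times among leading peaks. The highest peaks with it were at CG8281 (ranks 852, 755 and 842) and the RNA methyltransferase gene Nsun5 (1346, 1080 and 1170), and those with GGTCACAC at the nuclear receptor gene Hr78 (1219, 1029 and 1219) and the JAK/STAT receptor gene dome (820, 769 and 884, a trailing peak).

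**Figure D4:**
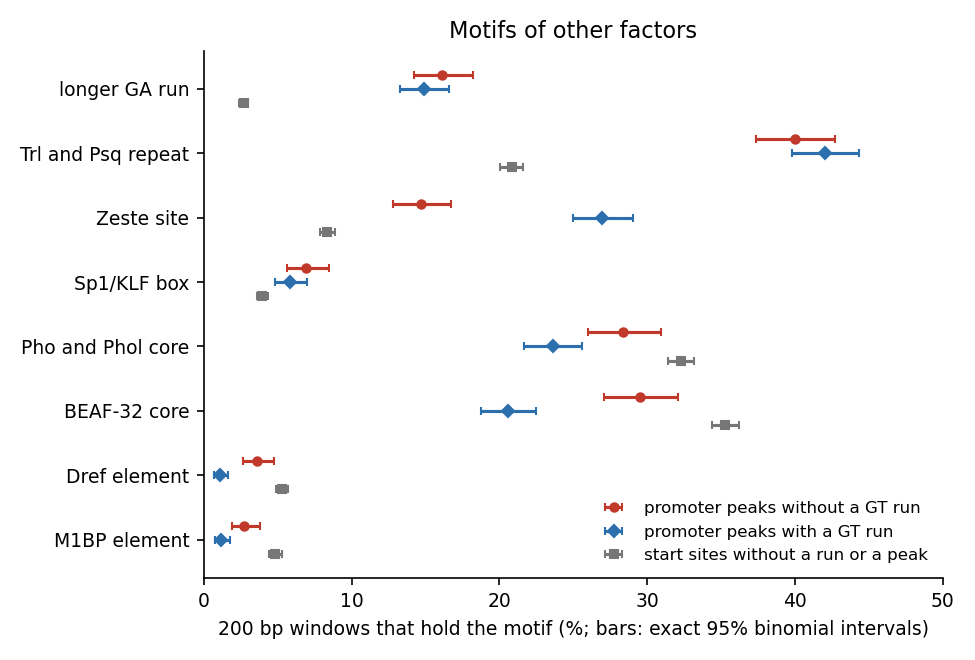
The percentage of 200 bp windows that hold a motif (horizontal axis) is given for 8 motifs, named by their factors (vertical axis), in promoter peaks without a GT run, promoter peaks with one and peak-free start sites without a run. Bars are exact 95% binomial intervals and cover counting error only. The GA repeats overlap between both classes of peaks and stand above start sites, the Zeste letters are at 14.7%, 27.0% and 8.35%, and the Dref and M1BP elements are lowest in peaks with a run.

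The other 9 sequences sought were near the level of start sites or under it. Windows without a run held the Zelda letters CAGGTA in 4.79%, against 5.78% with a run and 4.25% of all start-site windows. The E-boxes CACGTG and CAGCTG were in 2.82% and 12.9% without a run, against 4.28% and 11.7% with a run and 2.79% and 13.4% of all start-site windows. The AP-1 letters TGACTCA were in 1.83%, 1.23% and 1.57% of the same 3 kinds of windows, in that order. The homeodomain letters TTATGA and TAATTA were in 6.62% and 9.21% without a run, in 4.82% and 7.01% with a run and in 8.13% and 9.31% of all start-site windows. GATAAG was in 8.52% without a run, against 6.69% with a run and 12.3% of all start-site windows, the lowest ratio to peak-free start sites of the 20 apart from the M1BP element, at 0.646. The runs ATATAT and AAAAAA were in 14.2% and 32.0% without a run, in 11.2% and 33.5% with a run and in 13.7% and 35.9% of all start-site windows. In the replicates' own lists AAAAAA was in 33.2% ± 1.00 without a run and 32.6% ± 0.436 with one, opposite in sign to the thresholded list, and the difference of 0.633 ± 1.16 points was within the spread between replicates.

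Of all strand-collapsed 6-mers in at least 5% of windows without a run, the 10 with the highest ratio to peak-free start sites were of 2 kinds. GAGAGA and AGAGAG (each 3.37 times), GCGAGA (3.05), CCTCTC (2.98) and AGGGGG (3.05) were purine-rich or the complement of it. ACGCAC (3.24), GCACAC (3.20), CACACA (2.99), CGCACA (2.96) and CATACA (2.86) read on the other strand as interrupted or shifted GT repeats. GAGAGA was in 23.2% of windows without a run and 20.8% of those with one, while GCACAC was in 26.0% and 61.5%. A rank by ratio is a description and no test was made.

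Peaks without a run lay closer to the start site and more often upstream of it. The summit was within 100 bp of the TSS in 480 of 1314 peaks without a run (36.5%), against 23.2% with a run, and upstream of the nearest TSS in 49.4%, against 38.5%. Among leading peaks 37.8% without a run, against 23.7% with a run, were within 100 bp and 58.5%, against 40.3%, were upstream. By annotation 22.8% of peaks without a run were intergenic, against 12.9% with a run, 33.2% against 39.8% were in introns and 42.0% against 45.3% in 5' UTRs. Among leading peaks these shares were 28.2% against 13.9%, 34.7% against 40.5% and 35.2% against 43.8%. Of trailing peaks without a run, 54.0% were in 5' UTRs. The median distance to the TSS was 147 bp without a run and 189 bp with one, and the median peak width was 659 bp without a run and 827 bp with one. TSSs on both strands lay within 500 bp in 15.3% of peaks without a run and 11.3% with one. GC content of the window averaged 44.3% without a run, 46.3% with a run and 41.1% at peak-free start sites. Just inside the 500 bp limit, the 50 peaks at 451 to 500 bp had a median rank of 4136, and the 34 that met all other criteria at 501 to 550 bp had 3001.

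The start sites themselves had the core elements of other Combgap promoters. TATAAA at 45 to 15 bp upstream was at 47 of the 1226 start sites nearest to a peak without a run (3.83%), 2.66% of those nearest to a peak with a run, 10.3% of start sites without a pooled peak and 7.71% of all. The initiator core TCAGT was within 10 bp of 17.4%, 17.3%, 11.4% and 12.7% of the same start sites, in that order. CGGTTG, a downstream element, was at 2.45%, 2.66%, 0.995% and 1.31%. TATCGATA between 100 bp upstream and 50 bp downstream was at 8.24%, 7.62%, 4.94% and 6.26%, and GGTCACAC at 7.67%, 6.47%, 4.66% and 5.55%. The Dref and M1BP elements, rarer than average at the summits, were thus more frequent than average at the start sites next to them, in both classes of peaks. CTTTT, the initiator type of translation genes, was at 1.22%, 1.50%, 1.04% and 1.24%.

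The X chromosome held fewer promoter peaks without a run as a share of its own. Of its promoter peaks 238 of 673 lacked one (35.4%, 31.7 to 39.1), against 40.9% on 2L, 44.4% on 2R, 43.1% on 3L and 42.6% on 3R. Among the 8000 highest of each replicate's own list the share on X was 36.3%, 34.4% and 36.4%, against 41.4% to 46.3% on the 4 large autosome arms, so no replicate overlapped. Peaks without a run numbered 7.27 per 100 start sites on X, within the range of 5.74 to 7.61 on those arms, while those with a run numbered 13.3 on X against 8.30 to 9.52. Start-site windows lacked a run in 84.0% of cases on X and in 86.4% to 87.9% on those arms.

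Promoter peaks without a run belonged to 1325 of 13945 protein-coding genes (9.50%), and peaks with a run to 1740 (12.5%). Both kinds were at 582 genes, so 743 genes had peaks without a run and none with one. At 190 genes there were 2 or more peaks without a run. The share was larger for genes with more start sites: a peak without a run was at 5.42% of genes with 1 TSS, 15.04% with 2 and 33.9% with 3 or more. Leading peaks were at 921 genes (6.60%), and they were at 3.78% of genes with 1 TSS. Counts for lists below are given beside these shares with no test over a list. In many lists more genes had a peak with a run than one without. A peak with a run was at 6 of 8 homeotic, 17 of 29 BMP and EGF receptor pathway and 13 of 25 ecdysone and nuclear receptor genes. It was also at 10 of 20 genes for PRE and promoter binding factors and 7 of 16 heat shock genes. Fewer genes had one in other lists, such as 9 of 22 Polycomb group, 10 of 27 Trithorax group and 5 of 23 muscle genes.

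Of 28 imaginal disc and appendage patterning genes, 16 (57.1%) had a peak without a run, 14 had one with a run, and 13 had a leading peak without a run. Of the 14 with a single TSS, 8 had one. The highest by rank in the thresholded list, the order used for all lists, were at mirr, bi and Dll, the distal limb homeodomain gene, whose peak ranked 688, 450 and 660. Among 29 genes of the BMP and EGF receptor pathways 14 had one (48.3%), 9 of them a leading peak, and 6 of 12 with a single TSS. They were led by brk, by the signal transducer Mad at 434, 370 and 395, and by the trailing peak of the receptor gene put at 2084, 2855 and 2178, close to that of the EGF receptor ligand gene spi, which stood higher in each replicate (1587, 1786 and 1355) and was also trailing. Of 8 homeotic genes 4 had one: Scr (900, 888 and 1102), abd-A (3467, 2902 and 3311), Antp (4778, 5388 and 5377) and Ubx (8078, 7856 and 8557). Scr stood far above the other 3 in every replicate. It also had a peak with a run, at rank 155 in the thresholded list, above its peak without one at 945.

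Of 22 Polycomb group genes 10 had a peak without a run (45.5%), 8 of them a leading peak, and 4 of 12 with a single TSS. The highest lay 215 bp upstream of ph-d (220, 266 and 191), 136 bp upstream of Su(z)2 (322, 309 and 389) and 216 bp upstream of ph-p (520, 564 and 689). The genes ph-d and ph-p encode the PRC1 subunit Polyhomeotic and are near-identical neighbouring copies, so reads of either may have been placed at the other and their values are uncertain. Of 27 Trithorax group and chromatin remodelling genes 12 had one (44.4%), 9 a leading peak, and 6 of 14 with a single TSS. They were led by tna (906, 686 and 807), by Trl, the gene of GAGA factor itself (931, 718 and 827), and by fs(1)h, the BET bromodomain gene (1078, 979 and 1165). Of 20 genes for PRE and promoter binding factors 8 had one (40.0%) but only 4 a leading peak; after Trl came phol (1302, 1599 and 999) and the trailing peak of grh (3026, 2361 and 1585).

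Of 25 ecdysone response and nuclear receptor genes 12 had one (48.0%), 10 of them leading. None of the 8 with a single TSS did, and the list averaged 2.68 start sites a gene, against 1.41 over all genes. It was led by svp, by the gap gene kni (966, 689 and 1129) and by Hr78. Of 19 Hippo and growth control genes 8 had one (42.1%), led by the trailing peak of kibra (744, 802 and 994) and by InR (1191, 1217 and 1293). Of 18 Notch pathway genes 6 had one, led by E(spl)mbeta-HLH, numb (996, 1048 and 1032) and mam (2015, 1617 and 2432). Of 35 neural fate transcription factor genes 10 had one (28.6%), each of them also a leading peak, led by Dr (261, 259 and 301), vnd and esg (815, 571 and 769). Of 24 Hedgehog and Wnt pathway genes 4 had one, led by pan, the TCF factor of the Wnt pathway (1066, 706 and 894), sgg (1959, 1652 and 1656) and arr (1715, 2352 and 2047, a trailing peak), while 9 had a peak with a run.

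Muscle structure genes had one in 7 of 23 cases, again none at the 8 genes with a single TSS, led by Zasp52 (256, 185 and 315), Tm1 (2173, 1601 and 1383, a trailing peak) and Tm2 (2911, 2807 and 2939). Heat shock genes had one in 3 of 16 and germ line genes in 3 of 19, led by the small heat shock gene Hsp26 (932, 806 and 910) and by pum (1552, 1450 and 1530).

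General cellular genes had shares on both sides of the 9.50% of all genes. Translation factor and tRNA synthetase genes had a peak without a run in 7 of 28 cases, cell cycle and replication genes in 6 of 32, splicing genes in 4 of 28, general transcription machinery genes in 7 of 50, cytosolic ribosomal protein genes in 9 of 92 and mitochondrial ribosomal protein genes in 5 of 73. Among the genes on these lists, the highest peaks were of E2f1 (1996, 1781 and 2039), U2af50 (1982, 1869 and 1965), Taf4 (1492, 1383 and 1294, a trailing peak), RpL3 (1911, 1724 and 1691), eRF1 (3654, 4163 and 4285) and mRpL47 (338, 286 and 298). The lists are partial. The Mediator subunit gene MED19 (380, 343 and 426) and eIF3h (617, 607 and 569) are not on them and had higher peaks than Taf4 and eRF1. The peak counted for mRpL47 is nearest to the start site of CG8176, and that of RpL3 to CG6693. Another gene's start site is also nearest for eIF3b, eEF1alpha1, AspRS, eIF3a, Spt5, TfIIFalpha, MED22, MED27 and Nelf-E. The same holds for mRpL44, mRpL2, mRpS10, Sf3a1 and Dp. In other lists it holds for neur, Bap60, trr, Hsc70-5 and Prosbeta5. A single summit was counted for both Nelf-E and RpL14, as for Snr1 and mRpL44 and for trr and mRpL16. Which of the neighbouring genes a peak belongs to cannot be told from its position, so these shares may include peaks of neighbours. Neuronal function genes had one in 2 of 28 and proteasome genes in 1 of 31. No peak without a run was at any of 119 odorant and gustatory receptor genes or 124 cuticle protein genes.

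**Figure D5:**
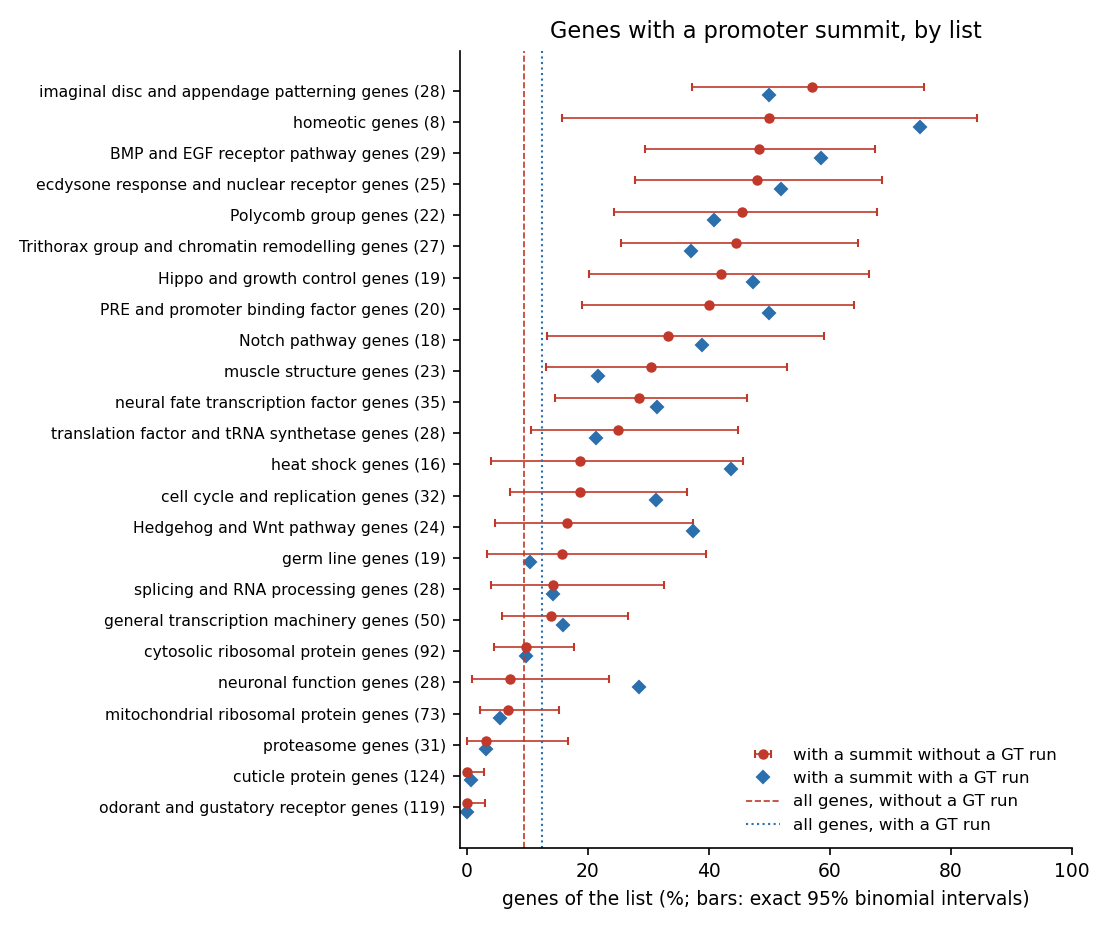
The percentage of genes with a promoter summit without a GT run (circles, with exact 95% binomial intervals that cover counting error only) and with a GT run (diamonds) is plotted for 24 lists, each with its number of genes, beside the percentages over all protein-coding genes (dashed 9.50% and dotted 12.5%). The list of imaginal disc genes stands highest for summits without a run at 57.1%, and receptor and cuticle genes are at 0.

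Genes with known ties to Combgap were divided. The promoter peaks of cg itself (90, 77 and 80 in replicates 1, 2 and 3), of ci (69, 60 and 62) and the highest of Abd-B (42, 58 and 45) held runs and are not among the peaks without one. The promoters of ph-d, Ubx and abd-A had peaks without a run in the window and none with one, while ph-p had both. For ph-d this rests on the width of the window, as a GT run lay 97 bp from its highest summit, across the window's edge. No run lay within 500 bp of the Ubx or the abd-A summit. The promoters of en and inv, neighbouring homeodomain genes of the segments, also had peaks without a run alone. The en peak ranked 5736, 6572 and 7338, below the class median, and the inv peak ranked 4439, 4399 and 4712, near it.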

How the data were processed

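The 3 samples were biological replicates of 1 group, numbered in the labels. Deposited for them were 5 narrowPeak lists on dm6: 1 of 30000 peaks for each replicate, 1 for the pooled alignments, and 1 of 7913 peaks thresholded by the irreproducible discovery rate (IDR). Peak signal was deposited as the authors' peak caller gave it against 1 control alignment, and its scale differs between lists. The authors also deposited −log10 q values, and all stood at 4.35 in the thresholded list, so they were not used to rank. Summit offsets were deposited in bp from the peak start. Neither aligner, peak caller, settings nor IDR threshold is given in the sources used here. Depth is unknown, so binomial intervals cover counting of windows or genes only.

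The 13945 protein-coding genes and their 19253 start sites were those of Ensembl release 115 (BDGP 6.54). Sequence was read from the matching release 6 assembly, whose chromosomes hold all peaks. A thresholded peak took, in each replicate, the signal of the replicate peak that held its summit and had the nearest summit. Ratios of medians and differences of shares were formed within a replicate and tested over 3 replicates by exact two-sided sign-flip permutation. The 24 gene lists, the 24 motifs and the members were chosen with earlier results of these data known. Of the list symbols, 10 were matched by a current name and 8 were left out, and 1 homeotic gene entered by mistake in the Polycomb list was removed after its values were seen. Named genes were those nearest to the 20 highest members, up to 3 highest members of each list with at least 3 genes that have a member, the 2 highest members with a motif, and, whatever their values, Abd-B, Ubx, abd-A, ph-d, ph-p, en, inv, ci and cg. Genes whose peaks lack GTGT, MED19, the list genes named for a nearer neighbour and the division into leading and trailing summits were chosen after values were seen. A gene that this rule names is not reported here. Alternatives were other distances, windows, run definitions, list cuts and background windows, and each replicate left out. Methods were tested on simulated peaks. The tools were Python 3.11.15 with scipy 1.17.1, numpy 2.4.6, matplotlib 3.10.9 and pandas 2.3.3.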

Additional observations from a re-analysis of the deposited data

How the results depend on the processing

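The number of promoter peaks without a GT run, 1314, was 824 with a 400 bp window, 234 where 2 GT units counted as a run, 628 in the upper part of the thresholded list, split at its median signal, 755 with 1 summit for each merged region and 836 without trailing summits, an alternative chosen after seeing the data. Their genes, 1325, were 657 in that upper part and 851 with 1 summit for each merged region. The lower signal of peaks without a run kept its direction under every alternative tried, with ratios between 0.421 (1 summit for each merged region) and 0.677 (that upper part). Leaving out each replicate in turn gave 0.484 to 0.499. The difference in share of the 1000 highest peaks, -40.5 percentage points, was -47.2 for the 500 highest, -30.1 for the 2000 highest, and -41.4 to -39.8 with a replicate left out.

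Differences in motif share between peaks without and with a run in the replicates' own lists turned round for GAGAGAG without trailing summits (0.800 points, against -1.77), for GGGCGG with a 400 bp window (-0.100, against 0.967) and for AAAAAA (0.633) with a 400 bp window (-0.267) and without trailing summits (-2.50). With start-site windows moved 100 bp upstream, the ratio of peaks without a run to peak-free start sites became 1.26 for GTGT, 2.02 for GTATGT, 4.64 for GAGAGAG, 1.12 for GGTCACAC, which turned round, 1.23 for CAGCTG, 0.514 for TTATGA, 0.585 for TAATTA, 0.710 for ATATAT and 0.838 for AAAAAA. The cause was not tested. No paired analysis was possible between groups because the labels give 1 group, and classes of peaks were compared within each replicate. The start-site windows are not matched to the peaks for position or GC content, and positions within about 200 bp of a higher summit cannot be told apart from it.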

Other observations

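Below the threshold, promoter summits without a GT run were the rule. Of 3701 pooled promoter summits outside the thresholded list, 2872 lacked a run (77.6%, exact 95% interval 76.2 to 78.9). Their windows held GAGAG in 32.5%, GAGAGAG in 9.33%, TGTGTG in 8.81% and GTATGT in 9.99% of cases, against 40.0%, 16.1%, 20.5% and 17.0% of the thresholded promoter peaks without a run, in the same order. The Dref element was in 5.57% and the M1BP element in 4.81%, against 3.58% and 2.74% of the thresholded ones. All of these shares lay nearer to those of peak-free start sites than the shares of the thresholded peaks did.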
